A study of Homo sapiens with 24 samples.

Results

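Long noncoding RNAs are transcripts that are not translated, and many are known for where in the cell they lie. Values were examined for 9 of them, MALAT1, NEAT1, KCNQ1OT1 and MEG3, described as nuclear, and NORAD, TUG1, OIP5-AS1, CYTOR and H19, described as cytoplasmic or present in both compartments. These 9 of the 57500 genes in the count files were chosen by name, and all 9 had a row in each of the 24 libraries. H2052, an established line of pleural mesothelioma cells (mesothelioma is a cancer of the membrane around the lungs), received 20 nM of a microRNA mimic with biotin at its 3′ end through the lipid reagent RNAiMAX. The mimic was miR-497-5p, which the labels write with an added suffix (miR-497-5p-RE) whose meaning they do not give, or a scrambled control that targets no known transcript. After 12 h or 72 h of either mimic, 3 libraries were made of the RNA held back on streptavidin beads out of cytoplasmic extract (pull-down), and 3 of input RNA (called RNA-seq), which makes 8 groups of 3 libraries. All 8 groups thus carried a biotinylated mimic and the transfection reagent, and no library of cells without a mimic was analysed here. All libraries were made from poly(A) RNA of 1 cell line, and whether replicates came from separate cultures is not stated, so every p-value refers to the spread of these libraries, which may be technical.

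A microRNA is carried by an Argonaute protein and finds its targets, mostly mRNAs in the cytoplasm, by pairing of its seed (bases 2 to 8) with a matching site. A long noncoding RNA can hold such sites too, and for some of these RNAs, above all OIP5-AS1, binding of a microRNA is part of what they are known for. A transcript that stays in the nucleus is not expected in a clean cytoplasmic extract, which is why MALAT1 and NEAT1 are often used to check such extracts. In poly(A) libraries the mature end of MALAT1 is a special case, since it is formed by cleavage and folds into a triple helix in place of a poly(A) tail.

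The sequences that bear on the comparison are the mimic, a family member with the same seed, and the matches to that seed in the members' exons. The mature microRNAs are those of RefSeq on GRCh38.p14, with the seed in capitals, and miR-195-5p, miR-15a-5p and miR-15b-5p have the same seed AGCAGCA.
hsa-miR-497-5p: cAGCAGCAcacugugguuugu
hsa-miR-16-5p: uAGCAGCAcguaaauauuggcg
Sites were searched on the transcript strand of all annotated exons as TGCTGCTA (8mer), TGCTGCT (7mer-m8, which an 8mer contains), GCTGCTA (7mer-A1) and GCTGCT (6mer, contained in the others). Windows of 30 bases are from GRCh38, 5′ to 3′ on the transcript strand, with the match in capitals. They show both TGCTGCT matches of MALAT1, the longest match of CYTOR, and the best match of the members without TGCTGCT that have any.
MALAT1 8mer, chr11:65497913-65497942, plus strand: tgggacgcagcgacgagttgTGCTGCTAtc
MALAT1 7mer-m8, chr11:65498472-65498501, plus strand: tttcccaagcagacagcccgTGCTGCTccg
CYTOR 8mer, chr2:87470231-87470260, plus strand: tcagctactcaagagacatcTGCTGCTAat
OIP5-AS1 7mer-A1, chr15:41304642-41304671, plus strand: aagcatgctgaataaaactaGCTGCTAtgg
NORAD 6mer, chr20:36050173-36050202, minus strand: tgtgtatataatatgaaaaaGCTGCTctca

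TGCTGCT was found in 6 of the 9 members, with 12 matches in KCNQ1OT1, 5 in MEG3, 3 in NEAT1, 3 in CYTOR, 2 in MALAT1 and 1 in TUG1. The 3 without it were NORAD, OIP5-AS1 and H19, and H19 held no GCTGCT either. The word is common in transcripts of such length. Among 18440 genes searched, 53.4% held TGCTGCT and 10.7% held TGCTGCTA. Set against genes of 0.8 to 1.25 times its own exonic length, MALAT1 (8755 bases) was like 75.1% of 2952 genes in holding TGCTGCT and like 19% in holding TGCTGCTA. For CYTOR (3456 bases) 7.41% of 3726 such genes held TGCTGCTA, and 8.78% held TGCTGCT at least as often. No gene of like length was available for KCNQ1OT1, whose single exon spans 91667 bases. A match is a string of letters in the annotation and does not show that the mimic bound there.

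Total counts ran between 8262425 and 30650982 for the pull-down, where replicate 2 of miR-497-5p at 72 h was lowest, and between 21561816 and 30602007 for RNA-seq. The biological coefficient of variation of the fits was 0.349 over the pull-down libraries and 0.0601 over RNA-seq, so the pull-down shows only larger differences. Summed over 10 mesothelial markers, levels were 3333 to 4950 CPM (counts scaled to the library's total) in the pull-down and 2109 to 3245 CPM in RNA-seq, with none of the 10 at 0 in any group, although calretinin (CALB2) reached only 0.658 to 5.66 CPM on the TMM scale. On that scale the group means were 733 to 2312 CPM for KRT18 and 537 to 1824 CPM for KRT19. They were 46.1 to 230 CPM for MSLN and 2.7 to 19.4 CPM for WT1, so the sum mostly reflects keratins. In bulk RNA, fewer cells with a transcript and less of it per cell cannot be told apart. Markers of other cells were low for leukocytes (2.03 to 14.4 CPM over 5 genes, MS4A1 at 0 in 6 of 8 groups), endothelium (at most 3.19 CPM over 3 genes) and fibroblasts (43.2 to 79.5 CPM over 4 genes). Markers of squamous epithelium (15 genes) were spread widely at 12 h, at 28.5 to 707 CPM in the pull-down and 20.8 to 752 CPM in RNA-seq, and were at most 13.6 CPM at 72 h. At 12 h they differed as much between libraries of 1 group as between groups, while every library at 12 h was above every library at 72 h. Their part in the comparisons between times was not tested. All marker sums, here and below, are on library totals.

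Pull-down was first set against RNA-seq within each mimic and time, which shows what the bead-bound cytoplasmic fraction held relative to the input. MALAT1, a nuclear RNA by description, was the member most raised in the bound fraction, 14.3-fold with miR-497-5p and 5.93-fold with the control at 72 h. MEG3 and KCNQ1OT1 were higher in the pull-down at 72 h with either mimic, while NEAT1, the other classic nuclear RNA, was lower there, as was the cytoplasmic NORAD. At 72 h, 4 of 8 tested members were higher and 2 lower in the pull-down with miR-497-5p, in a background where 65.8% of 16896 genes were called, 30.6% higher and 35.2% lower. With the control the counts were 5 higher and 3 lower of 8, in a background of 63.8% (29.7% higher and 34.1% lower). At 12 h they were 3 higher and 2 lower of 9 with miR-497-5p, in a background of 47.2% of 17078 genes (22.6% higher and 24.6% lower), and 2 higher and 1 lower of 9 with the control, in a background of 46.6% (19.7% higher and 26.9% lower). The shares of members called were thus near the background except at 72 h with the control, where all 8 were called, and no result about the members is read from the counts. Called here means an adjusted p below 0.05 by the quasi-likelihood test of edgeR.

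The median log2 fold change of the members, pull-down over RNA-seq, was 0.16 with miR-497-5p and 0.51 with the control at 72 h, beside −0.16 and −0.15 over all genes. The labels of nucleus and cytoplasm did not sort the members cleanly. The 4 nuclear members had a median of 2.22 with miR-497-5p and 1.34 with the control at 72 h, with 3 higher and NEAT1 lower in both arms. The 4 tested cytoplasmic members had medians of −0.02 and −0.06. Of these, OIP5-AS1 was higher and NORAD lower with miR-497-5p, and TUG1 and CYTOR were higher and NORAD and OIP5-AS1 lower with the control. Both arms rest on their own libraries, but values within an assay share libraries with the comparisons of mimics below.

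**Figure D1:**
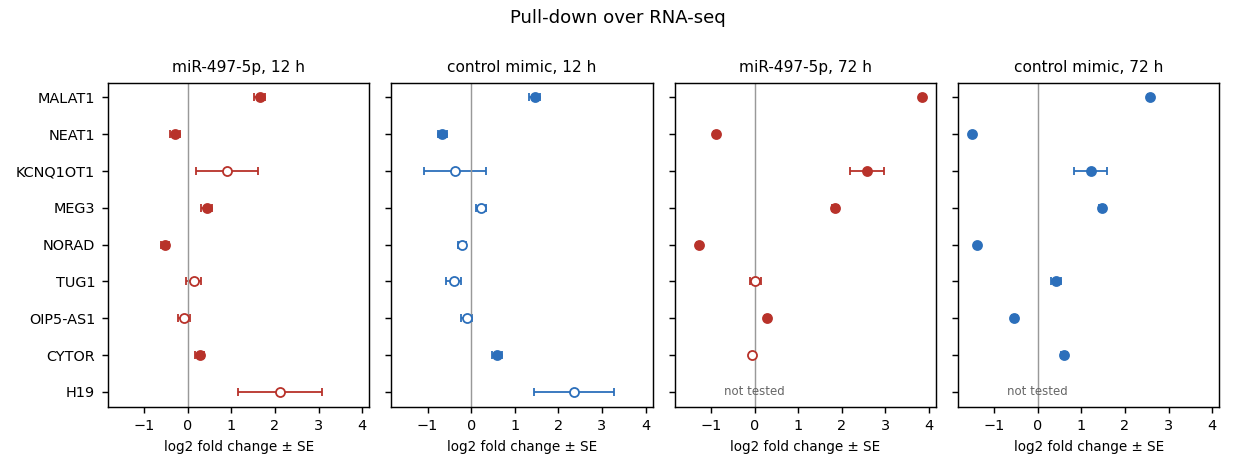
Log2 fold change (± SE, edgeR) of each member, pull-down over RNA-seq, in 4 panels by time and mimic, each from 3 against 3 libraries. Filled points passed an adjusted p of 0.05 and open points did not; MALAT1 lies at 3.84 with miR-497-5p and 2.57 with the control at 72 h, and NEAT1 and NORAD lie below 0 in both.

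The miR-497-5p mimic was then set against the control mimic in each assay. Early, little moved. At 12 h the pull-down held 1 called member, NORAD, which was lower, in a background of 0.595% of 17477 genes (0.326% higher and 0.269% lower), and RNA-seq held 1 higher (CYTOR) and 1 lower (H19), in a background of 12.5% of 17335 genes (7.25% higher and 5.3% lower). At 72 h the pull-down held 5 members that rose (MALAT1, NEAT1, MEG3, NORAD and OIP5-AS1) and none that fell, where 22.7% of all genes were called, 10.2% higher and 12.6% lower. RNA-seq at 72 h also held 5 that rose (NORAD, TUG1, OIP5-AS1, CYTOR and, by a small change that turns sign with library totals, NEAT1) and none that fell, where 57.5% of all genes were called, 27.9% higher and 29.6% lower. Medians of the members at 72 h were 0.73 in the pull-down, where H19 has no usable fold and was ranked lowest, and 0.21 in RNA-seq, on the log2 scale, against a median near 0 (0.003 or less) over all genes.

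**Figure D2:**
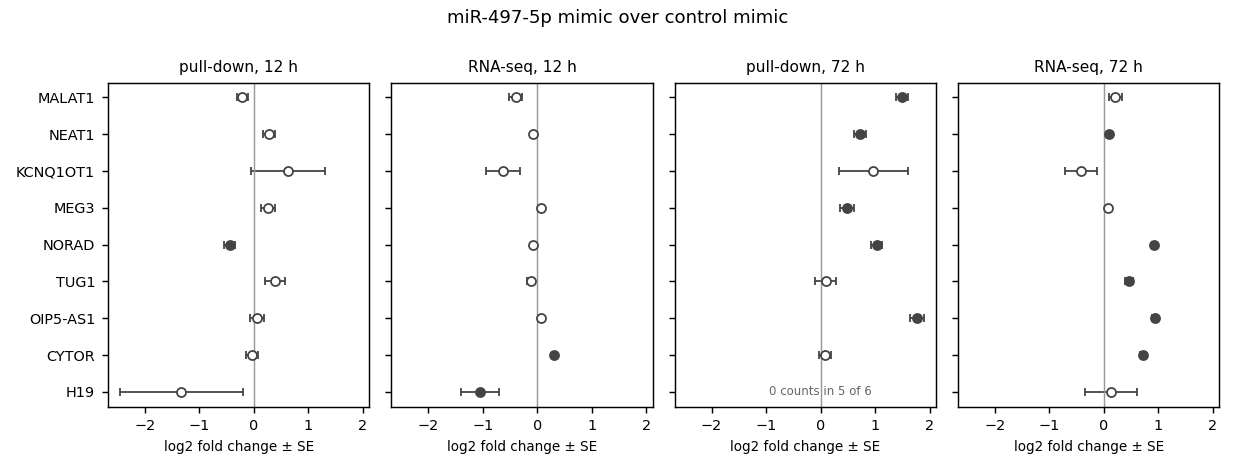
Log2 fold change (± SE, edgeR) of each member, miR-497-5p over control mimic, in 4 panels by time and assay, each from 3 against 3 libraries. Filled points passed an adjusted p of 0.05; at 72 h, 5 members are filled to the right of 0 in each assay, with MALAT1 at 1.50 in the pull-down and 0.21 (open) in RNA-seq, and NEAT1 in RNA-seq, at 0.09, changes sign with library totals. H19 in the pull-down at 72 h has no point because 5 of 6 libraries had 0 counts.

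MALAT1 (ENSG00000251562, chromosome 11, 65497762 to 65506516, plus strand, 1 exon) is an abundant RNA of nuclear speckles, where splicing factors gather. At 72 h its pull-down levels were 18737, 18952 and 20852 CPM with miR-497-5p and 7472, 6760 and 6465 CPM with the control, on the scale of CPM adjusted by TMM that is used for the levels of single genes below. In RNA-seq at 72 h they were 1290, 1422 and 1342 CPM with miR-497-5p and 1195, 1170 and 1166 CPM with the control. The 4 groups at 72 h did not overlap, and the pull-down groups stood far above both RNA-seq groups. Within the pull-down the rise with miR-497-5p was 1.50 ± 0.11 on the log2 scale (2.83-fold, adjusted p = 5.24e-10). The change in RNA-seq, 0.21 ± 0.12, did not pass (adjusted p = 0.168), although the mimics' values did not overlap and a fit of those 6 libraries alone gave an adjusted p of 2.45e-11.

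Pull-down over RNA-seq, MALAT1 was 3.84 ± 0.05 with miR-497-5p (adjusted p = 4.71e-19), a log2 fold change that 117 of 16896 genes exceeded, and 2.57 ± 0.05 with the control (adjusted p = 2.75e-17), which 624 exceeded. At 72 h MALAT1 alone took 15585 ± 790 CPM of total counts in the miR-497-5p pull-down and 5464 ± 392 in the control pull-down (SD, n = 3). The pull-down values at 12 h were 1008, 806 and 1182 CPM with miR-497-5p and 1084, 1240 and 1188 CPM with the control. RNA-seq at 12 h gave 291, 354 and 306 CPM with miR-497-5p and 462, 447 and 340 CPM with the control. The pull-down was thus already above RNA-seq at 12 h, by 1.65 ± 0.13 with miR-497-5p and 1.46 ± 0.13 with the control (adjusted p = 6.8e-08 and 1.77e-07), but the mimics overlapped in both assays and neither difference was called (adjusted p = 0.495 in the pull-down and 0.0744 in RNA-seq, where DESeq2 gave 0.00776).

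NEAT1 (ENSG00000245532, chromosome 11, 65422774 to 65445540, plus strand) is the scaffold of paraspeckles, nuclear bodies built around it, and lies upstream of MALAT1. Unlike its neighbour it was poorer in the bound fraction. At 72 h the pull-down held 180, 167 and 197 CPM with miR-497-5p and 114, 106 and 110 CPM with the control, and RNA-seq held 338, 336 and 324 CPM with miR-497-5p and 319, 315 and 313 CPM with the control. Every pull-down library was below every RNA-seq library. The log2 fold change, pull-down over RNA-seq, was −0.88 ± 0.05 with miR-497-5p and −1.51 ± 0.05 with the control (adjusted p = 6.3e-11 and 3.99e-14). At 12 h it was −0.29 ± 0.11 and −0.66 ± 0.11 (adjusted p = 0.0332 and 7.68e-05), and the value with miR-497-5p lost its call on leaving out any of 5 single libraries, all but replicate 3 of the pull-down.

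Within the pull-down, NEAT1 rose with miR-497-5p at 72 h by 0.73 ± 0.11 (1.66-fold, adjusted p = 3.06e-05), and the groups did not overlap. In RNA-seq the call at 72 h was small, 0.09 ± 0.03 (adjusted p = 0.0272), and its direction depends on the scaling, since library totals alone gave −0.02 and an offset for gene length −0.05. It was also lost without replicate 2 or 3 of the control or replicate 1 or 2 of miR-497-5p. At 12 h the pull-down held 159, 188 and 192 CPM with miR-497-5p and 125, 151 and 174 CPM with the control, and RNA-seq held 218 to 222 CPM with miR-497-5p and 221 to 238 CPM with the control. Neither was called (0.27 ± 0.11, adjusted p = 0.403, and −0.07 ± 0.03, adjusted p = 0.155).

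KCNQ1OT1 (ENSG00000269821, chromosome 11, 2608328 to 2699994, minus strand) is a nuclear RNA transcribed antisense to KCNQ1 that silences imprinted neighbours such as CDKN1C. It was scarce here, with 2 to 132 counts a library. At 72 h the pull-down held 96, 66 and 132 counts with miR-497-5p and 97, 50 and 84 with the control, and RNA-seq held 27 in each library with miR-497-5p and 42, 42 and 53 with the control. Scaled, these were 5.47 to 9.58 and 2.07 to 5.21 CPM in the pull-down, and 1.20 to 1.31 and 1.49 to 2.04 CPM in RNA-seq. Pull-down exceeded RNA-seq by 2.58 ± 0.39 on the log2 scale with miR-497-5p and 1.21 ± 0.38 with the control (adjusted p = 1.77e-05 and 0.00962). In the control arm the call was lost without replicate 1 of the pull-down (adjusted p = 0.0512) and with library totals (0.83, adjusted p = 0.0662).

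Between mimics KCNQ1OT1 passed in neither assay at 72 h, at 0.97 ± 0.63 in the pull-down (adjusted p = 0.312) and −0.42 ± 0.29 in RNA-seq (adjusted p = 0.214). At 12 h the pull-down held 13, 14 and 58 counts with miR-497-5p and 18, 2 and 24 with the control, and RNA-seq held 14 to 26 and 24 to 45. No comparison at 12 h passed for it, and smaller differences were not detectable at these counts. KCNQ1 shares 121 exonic bases with it on the other strand and had at most 11 counts in a library. No source used here states the strand setting, and without it the reads of opposite genes cannot be told apart.

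MEG3 (ENSG00000214548, chromosome 14, 100779410 to 100861031, plus strand) is the maternally expressed RNA of the imprinted DLK1 locus, mostly nuclear, and known for holding back growth in tumour cells. Its level in the bound fraction stood further above the input at 72 h than at 12 h in both arms. At 72 h the pull-down held 219, 199 and 246 CPM with miR-497-5p and 154, 170 and 152 CPM with the control, against RNA-seq levels of 60.6, 60.6 and 61.4 CPM and 54.7, 58.2 and 61.3 CPM. The pull-down stood above RNA-seq by 1.85 ± 0.07 with miR-497-5p and 1.47 ± 0.07 with the control (adjusted p = 2.46e-13 and 5.58e-12). Within the pull-down MEG3 rose with miR-497-5p by 0.48 ± 0.13 (adjusted p = 0.00672), and the groups did not overlap, but without replicate 3 of the miR-497-5p pull-down the adjusted p was 0.0646, and with an offset for gene length the value was 0.31 (adjusted p = 0.0933). RNA-seq gave 0.08 ± 0.05 (adjusted p = 0.233).

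At 12 h MEG3 was at 44.7, 34.1 and 39.9 CPM in the pull-down with miR-497-5p and 36.7, 36.2 and 27.5 CPM with the control, and at 27.3 to 31.3 CPM in all 6 RNA-seq libraries. The pull-down passed over RNA-seq with miR-497-5p (0.43 ± 0.12, adjusted p = 0.0089) and not with the control (0.22 ± 0.12, adjusted p = 0.158). Without replicate 3 of the miR-497-5p RNA-seq the call with miR-497-5p was lost (adjusted p = 0.055). The control value was called higher with DESeq2 (0.33, adjusted p = 0.0373) and with an offset for gene length, alone or with a replicate block (adjusted p = 0.00501 and 0.00386). DESeq2 size factors, only the libraries compared, or leaving out replicate 3 of the control pull-down also gave the call (adjusted p = 0.0499, 0.0461 and 0.0372). The difference between the arms did not pass (0.21 ± 0.17, adjusted p = 0.611).

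**Figure D3:**
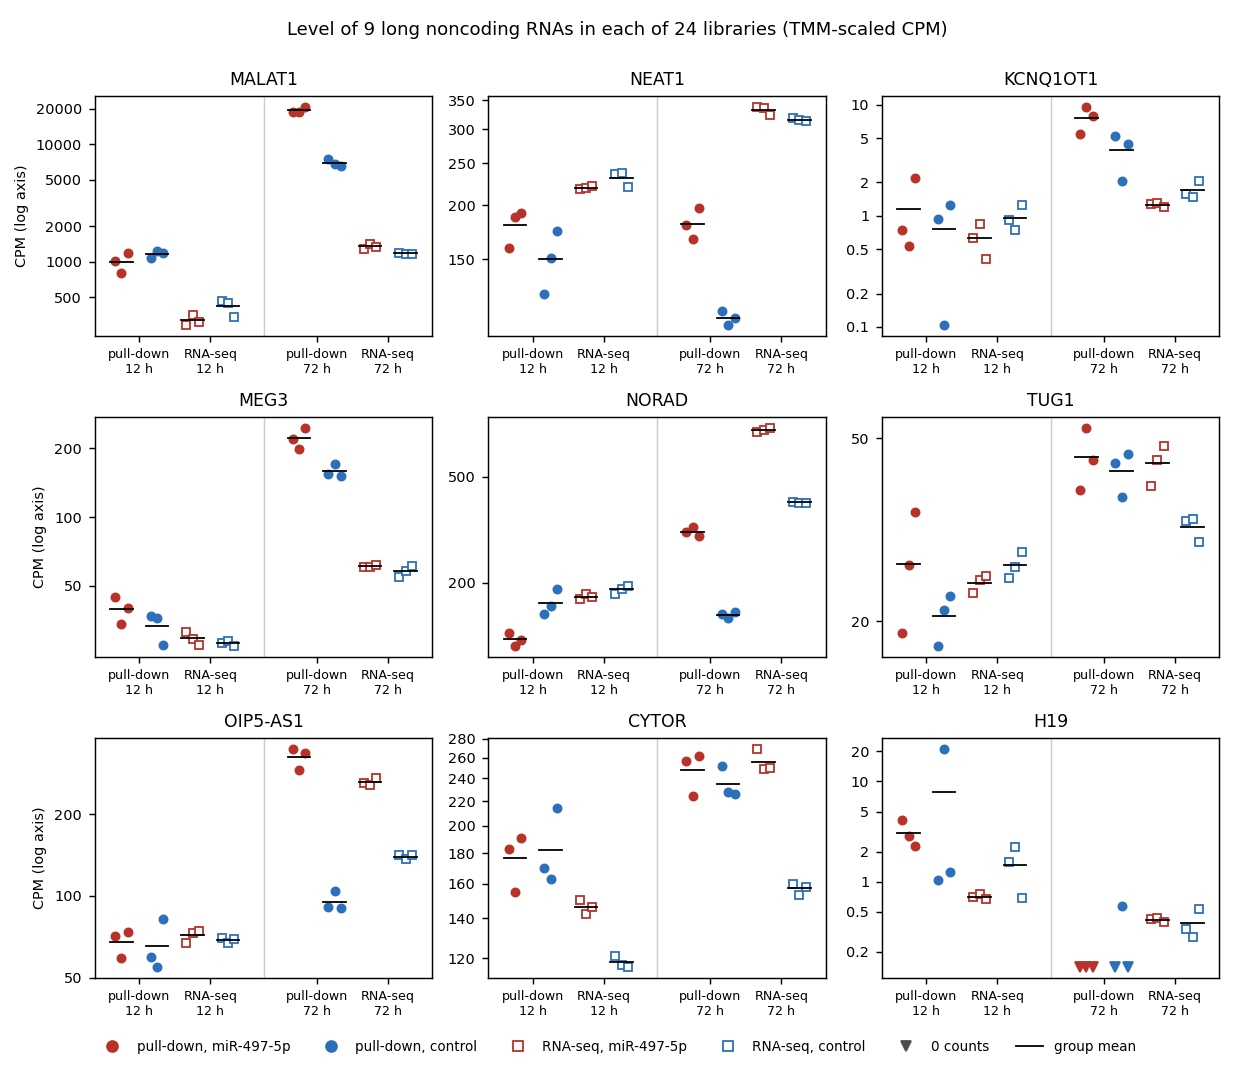
CPM (TMM-scaled, log axis, each panel with its own range) of the 9 members in each of the 24 libraries. Each point is 1 library (filled circles pull-down, open squares RNA-seq, red miR-497-5p, blue control), horizontal lines are means of groups without a 0, and triangles near the lower edge stand for 0 counts; MALAT1 in the pull-down is highest at 72 h with miR-497-5p, and H19 has 1 pull-down library at 12 h far above the rest.

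NORAD (ENSG00000260032, chromosome 20, 36045622 to 36050960, minus strand, 1 exon) is a cytoplasmic RNA that binds Pumilio proteins, repressors of mRNAs, and helps keep chromosome number stable. Its exon held 15 matches to TGTANATA, the Pumilio motif, on the transcript strand and with overlaps counted. Among 4370 genes of like length 38.7% held at least 1, and none held 15 or more. NORAD moved in both assays at 72 h. The pull-down held 309, 324 and 299 CPM with miR-497-5p and 153, 147 and 155 CPM with the control, and RNA-seq held 738, 747 and 763 CPM with miR-497-5p and 403, 400 and 400 CPM with the control. With miR-497-5p it rose by 1.03 ± 0.10 in the pull-down (2.05-fold, adjusted p = 2.48e-08) and by 0.91 ± 0.03 in RNA-seq (1.88-fold, adjusted p = 5.66e-28), and no values overlapped between mimics.

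Since both assays rose at 72 h, NORAD's pull-down over RNA-seq was close in the 2 arms there. The values were −1.28 ± 0.04 with miR-497-5p and −1.39 ± 0.04 with the control (adjusted p = 1.06e-14 and 4.29e-15). The difference between them, 0.10 ± 0.06 with a 95% interval of −0.01 to 0.22, did not pass (adjusted p = 0.263), but with library totals it was 0.24 and was called (adjusted p = 0.0144). In the pull-down the direction at 12 h was the other way. NORAD was at 130, 116 and 122 CPM with miR-497-5p and 152, 163 and 189 CPM with the control, a log2 change of −0.44 ± 0.10 (adjusted p = 0.0373) with groups that did not overlap. That call was lost without replicate 2 of the control or without replicate 2 or 3 of the miR-497-5p pull-down, and with library totals (adjusted p = 0.126). RNA-seq at 12 h, at 173 to 181 CPM with miR-497-5p and 182 to 194 CPM with the control, gave −0.09 ± 0.03 (adjusted p = 0.077). Pull-down over RNA-seq at 12 h was −0.53 ± 0.09 with miR-497-5p (adjusted p = 0.000118). With the control it was −0.20 ± 0.09 and not called (adjusted p = 0.0754), but was called with library totals (−0.37, adjusted p = 0.000841). The difference between these arms, −0.33 ± 0.12, did not pass (adjusted p = 0.205). DESeq2 and a fit of all 24 libraries called it (adjusted p = 0.0495 and 0.0229).

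TUG1 (ENSG00000253352, chromosome 22, 30970677 to 30979395, plus strand) is found in both compartments, and GENCODE 44 lists it as protein coding since a reading frame has been described in it. It rose with miR-497-5p in RNA-seq at 72 h, and no difference was called in the bound fraction. At 72 h RNA-seq held 39.3, 44.9 and 48.1 CPM with miR-497-5p and 33.1, 33.4 and 29.7 CPM with the control (0.46 ± 0.07, adjusted p = 7.66e-08). The pull-down held 38.7, 52.7 and 44.9 CPM with miR-497-5p and 44.1, 37.2 and 46.3 CPM with the control, which overlap (0.09 ± 0.19, 95% interval −0.28 to 0.46, adjusted p = 0.81). Pull-down over RNA-seq was 0.02 ± 0.12 with miR-497-5p (adjusted p = 0.894) and 0.42 ± 0.12 with the control (adjusted p = 0.00537), where library totals gave 0.04 and no call (adjusted p = 0.795). The difference between arms, −0.40 ± 0.17, did not pass (adjusted p = 0.141). At 12 h no comparison passed for TUG1. It was at 18.9 to 34.5 CPM in the miR-497-5p pull-down, 17.7 to 22.7 CPM in the control pull-down, and 23.0 to 28.3 CPM over all RNA-seq libraries. Pull-down over RNA-seq with the control at 12 h came nearest (−0.40 ± 0.17, adjusted p = 0.0686). It was called lower with library totals (−0.57, adjusted p = 0.0117) and without a filter on low counts (−0.45, adjusted p = 0.00983). A replicate block, only the libraries compared, or leaving out replicate 3 of the control pull-down also gave the call (adjusted p = 0.0227, 0.0423 and 0.0419).

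OIP5-AS1 (ENSG00000247556, chromosome 15, 41283990 to 41309737, plus strand), the human counterpart of the RNA called Cyrano, is known from mouse to pair with miR-7 over nearly the whole microRNA and to bring about its decay. That site is shown with miR-7-5p because it is the feature the RNA is known for. Capitals mark the seed of the microRNA and its match GTCTTCC, of which the exons held 3 (of 1314 genes of like length 59.2% held at least 1 and 9.21% at least as many).
hsa-miR-7-5p: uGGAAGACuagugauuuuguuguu
OIP5-AS1 miR-7 site, chr15:41300572-41300601, plus strand: agaacaacaaaatcaccaatGTCTTCCatt
For miR-497-5p it held no TGCTGCT, only the 7mer-A1 match shown above and 2 of GCTGCT. Its estimated rise between mimics was the largest among the called members. At 72 h the pull-down held 348, 291 and 336 CPM with miR-497-5p and 91.0, 104 and 90.1 CPM with the control, a log2 change of 1.77 ± 0.13 (3.42-fold, adjusted p = 5.02e-10). RNA-seq held 261, 257 and 273 CPM with miR-497-5p and 141, 137 and 141 CPM with the control (0.93 ± 0.04, 1.90-fold, adjusted p = 6.81e-25). No values overlapped between mimics in either assay.

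Relative to RNA-seq, OIP5-AS1 changed sides between the arms at 72 h. It was higher in the pull-down with miR-497-5p (0.29 ± 0.06, adjusted p = 0.00056) and lower with the control (−0.54 ± 0.06, adjusted p = 1.07e-06). The difference of 0.83 ± 0.09 passed (adjusted p = 6.12e-06). With library totals as the scaling, which put the median of all genes at −0.41 with miR-497-5p and −0.53 with the control, the value with miR-497-5p was 0.05 and was not called. At 12 h it was at 70.9, 58.9 and 73.5 CPM in the pull-down with miR-497-5p, 59.6, 54.8 and 82.0 CPM with the control, and 66.8 to 74.4 CPM over all RNA-seq libraries, and no comparison passed. RNA-seq between mimics at 12 h was called higher with the length offset, alone or with a replicate block (0.13 in both, adjusted p = 0.0234 and 0.0186). Pull-down over RNA-seq with the control was called lower without replicate 3 of the control pull-down (−0.33, adjusted p = 0.014). OIP5, on the opposite strand, shares 470 exonic bases with OIP5-AS1 (3.71% of the length of OIP5-AS1). OIP5 had at most 733 counts in a library, and its RNA-seq level at 72 h fell with miR-497-5p (log2 fold change −1.53 ± 0.12, adjusted p = 1.97e-15).

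CYTOR (ENSG00000222041, chromosome 2, 87455368 to 87606805, plus strand) is a mainly cytoplasmic RNA described as raised in many tumours, with a close copy elsewhere on the chromosome, MIR4435-2HG. Of its 31-base words 40.7% also occur in the copy, and of its words of 150 bases, the length of a read, 4.68% do, so reads may be lost or split between them. CYTOR rose in RNA-seq at both times, and no difference was called in the pull-down. In RNA-seq it was at 150, 142 and 146 CPM with miR-497-5p and 121, 117 and 116 CPM with the control at 12 h (0.31 ± 0.04, adjusted p = 3.39e-08). At 72 h it was at 269, 249 and 250 CPM with miR-497-5p and 160, 153 and 158 CPM with the control (0.71 ± 0.04, 1.64-fold, adjusted p = 2.08e-21). Neither pair of groups overlapped.

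The pull-down levels of CYTOR were 257, 224 and 262 CPM with miR-497-5p and 252, 228 and 226 CPM with the control at 72 h, and 183, 155 and 191 against 170, 163 and 214 CPM at 12 h. They overlapped at both times (0.08 ± 0.11, 95% interval −0.14 to 0.30, adjusted p = 0.716, and −0.03 ± 0.11, adjusted p = 0.973). The bound fraction was thus above RNA-seq by 0.60 ± 0.06 with the control at 72 h (adjusted p = 5.72e-08), while with miR-497-5p the value was −0.05 ± 0.06 (adjusted p = 0.43), which became a call of lower with library totals (−0.30, adjusted p = 5.52e-05) and without a filter on low counts (−0.15, adjusted p = 0.0455). The difference, −0.65 ± 0.08, passed (adjusted p = 2.65e-05). The values at 12 h were 0.27 ± 0.10 with miR-497-5p (adjusted p = 0.0476, lost on leaving out any of 5 single libraries, all but replicate 2 of the pull-down) and 0.59 ± 0.11 with the control (adjusted p = 0.000198). MIR4435-2HG, which held the same number of TGCTGCT matches, averaged 154 ± 3.97 CPM with miR-497-5p and 115 ± 11.7 CPM with the control in the pull-down at 72 h, and 151 ± 3.27 and 97.4 ± 1.62 CPM in RNA-seq (SD, n = 3). It rose in both assays (log2 fold changes of 0.42 ± 0.11 and 0.64 ± 0.04).

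H19 (ENSG00000130600, chromosome 11, 1995163 to 2001470, minus strand) is an imprinted RNA next to IGF2, host of a microRNA, and found in the cytoplasm. It was scarce and rested on single libraries. At 12 h the pull-down held 72, 75 and 60 counts with miR-497-5p and 20, 403 and 24 with the control, and RNA-seq held 18, 23 and 23 with miR-497-5p and 50, 71 and 25 with the control. Control pull-down replicate 2 stands apart from all others. Pull-down over RNA-seq did not pass, at 2.11 ± 0.96 with miR-497-5p (adjusted p = 0.0912) and 2.36 ± 0.91 with the control (adjusted p = 0.0508), and the control value depends on single libraries and settings. It was −0.42 without replicate 2 of the control pull-down (adjusted p = 0.562), but 2.87 without replicate 1 (adjusted p = 0.0051) and 2.85 without replicate 3 (adjusted p = 0.00785), and was called with DESeq2 size factors (2.47, adjusted p = 0.0455) and without a filter (2.32, adjusted p = 7.64e-09). Between mimics the pull-down at 12 h gave −1.33 ± 1.13 (adjusted p = 0.819).

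The library that held 403 counts of H19 also held immunoglobulin transcripts, a list chosen after the values were seen. Their sum over 9 genes was 0.507, 0.175 and 0.46 CPM in the miR-497-5p pull-down and 0.899, 131 and 24.5 CPM in the control pull-down at 12 h, led by IGHG1 with 780 counts and IGKC with 623 in replicate 2. Their part in the H19 value was not tested. In RNA-seq at 12 h H19 was lower with miR-497-5p (−1.05 ± 0.35, adjusted p = 0.0372), a call that was lost without either of replicates 1 and 2 of the control or any 1 of the miR-497-5p libraries. Those control replicates had 607 and 620 CPM of squamous markers against 205 CPM in replicate 3, and the miR-497-5p libraries had 752, 20.8 and 66.2 CPM, and the part of these in the H19 value was not tested.

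At 72 h H19 had 9 counts in each RNA-seq library with miR-497-5p and 9, 8 and 14 with the control (0.13 ± 0.47, adjusted p = 0.834). The pull-down had 0 counts in all 3 libraries with miR-497-5p, which allows up to 0.436 CPM in the shallowest, and 0, 14 and 0 with the control. No fold is given for it, and H19 did not pass the filter on low counts in the fit of the 72 h libraries, so it was not tested against RNA-seq there.

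Levels can be set beside each other between members only per exonic kilobase. On that scale MALAT1 led in every group except RNA-seq at 12 h with miR-497-5p, where CYTOR (42.3 ± 1.22 CPM per kilobase) was above MALAT1 (36.2 ± 3.78) and the ranges of MALAT1 and NORAD (33.2 ± 0.733) overlapped. At 72 h with miR-497-5p the pull-down order was MALAT1 at 2229 ± 133, CYTOR at 71.7 ± 5.89, NORAD at 58.2 ± 2.38, OIP5-AS1 at 25.6 ± 2.39, MEG3 at 14.0 ± 1.50, NEAT1 at 7.97 ± 0.652 and TUG1 at 6.69 ± 1.03 CPM per kilobase, with KCNQ1OT1 at 0.0836 ± 0.0226 and H19 at 0. Only NEAT1 and TUG1 overlapped in that group. In RNA-seq of the same cells MALAT1 (154 ± 7.56) and NORAD (140 ± 2.32) stood close but apart, followed by CYTOR (74.0 ± 3.29), OIP5-AS1 (20.8 ± 0.662), NEAT1 (14.6 ± 0.321), TUG1 (6.49 ± 0.657) and MEG3 (3.86 ± 0.0295), with no overlap between neighbours. These values are SD over 3 libraries. NEAT1 and KCNQ1OT1 are averaged over their longest annotated exons, so a shorter isoform would be understated.

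Whether the mimic changed a member differently in the 2 assays was tested as an interaction, the effect in the pull-down less that in RNA-seq. At 12 h none of 9 members was called, in a background of 1.34% (0.984% higher and 0.357% lower). The same count was 4 at an unadjusted p under 0.05 (NEAT1, NORAD, TUG1 and CYTOR), and DESeq2 called 1 (NORAD). The share of all genes at the unadjusted threshold is not given here, so no result about the members is read from that count. At 72 h the effect in the pull-down exceeded that in RNA-seq for MALAT1 (1.27 ± 0.07, adjusted p = 1.01e-09), OIP5-AS1 (0.83 ± 0.09), NEAT1 (0.63 ± 0.07, adjusted p = 1.19e-05) and MEG3 (0.39 ± 0.10, adjusted p = 0.0147), and fell short of it for CYTOR (−0.65 ± 0.08). This was 5 of 8 tested, in a background of 14.5% (7.46% higher and 7.01% lower). The MEG3 call was lost without replicate 3 of the control RNA-seq (adjusted p = 0.0532) and with all 24 libraries in 1 fit (adjusted p = 0.0524). KCNQ1OT1 had the largest estimate but a wide error (1.37 ± 0.54, adjusted p = 0.106). Of the 6 tested members with TGCTGCT, MALAT1, NEAT1 and MEG3 were higher on this measure, CYTOR was lower, and KCNQ1OT1 and TUG1 did not pass. Of the tested members that lack it, OIP5-AS1 was higher and NORAD did not pass (0.10 ± 0.06, adjusted p = 0.263). The part of the sites in these values was not tested.

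The effect of the mimic was also compared between times with its sign kept, so a greater effect need not be a larger change. In RNA-seq it was greater at 72 h than at 12 h for 6 of 9 members, MALAT1 (0.59 ± 0.17), NEAT1 (0.16 ± 0.05), NORAD (0.99 ± 0.04), TUG1 (0.59 ± 0.10), OIP5-AS1 (0.86 ± 0.06) and CYTOR (0.40 ± 0.05), in a background of 48.8%, 22.5% higher and 26.2% lower. In the pull-down it was greater for 3 of 9, MALAT1 (1.71 ± 0.15), OIP5-AS1 (1.71 ± 0.19) and NORAD (1.47 ± 0.14), in a background of 12.2% (5.94% higher and 6.27% lower). No member was called the other way in either assay, although MEG3 in RNA-seq was called lower with an offset for gene length (−0.19, adjusted p = 0.0435). With all 24 libraries in 1 fit the calls of TUG1 (adjusted p = 0.0528) and NEAT1 (adjusted p = 0.479) in RNA-seq were lost, and NEAT1 was also lost with library totals (0.10, adjusted p = 0.0647) and changed sign with the length offset. For MALAT1 the 12 h and 72 h effects had opposite signs in both assays, although its 12 h effects did not pass. In RNA-seq its effect was −0.39 at 12 h and 0.21 at 72 h, so its size was not larger at 72 h. For NEAT1 in RNA-seq the effects were −0.07 and 0.09. NORAD in both assays and TUG1 in RNA-seq also changed sign between the times.

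Members were placed among the classes of genes at 72 h. The 2279 tested genes that GENCODE lists as lncRNA had a median log2 fold change, pull-down over RNA-seq, of −0.03 with miR-497-5p and 0.06 with the control, and 13349 protein-coding genes had −0.20 in both arms. The middle 80% of lncRNA genes ran from −2.69 to 2.44 with miR-497-5p and from −2.41 to 2.33 with the control, so MALAT1 lay outside that span in both arms and KCNQ1OT1 with miR-497-5p. The other 6 tested members lay within it. Between mimics, 4.24% of lncRNA genes rose and 1.84% fell in the pull-down at 72 h, against 11.5% and 15.0% of protein-coding genes. In RNA-seq at 72 h 22.7% of lncRNA genes rose and 9.34% fell, against 29.5% and 34.0%. Among genes in the fit of the 72 h libraries, the median lncRNA gene had a mean of 0.83 CPM and the median protein-coding gene 18.2 CPM. Among genes tested between mimics these were 0.923 and 15.9 CPM for the pull-down fit and 0.933 and 16.3 CPM for the RNA-seq fit. Each gene's mean was over all 24 libraries. Calls of the classes thus rest on different depths.

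**Figure D4:**
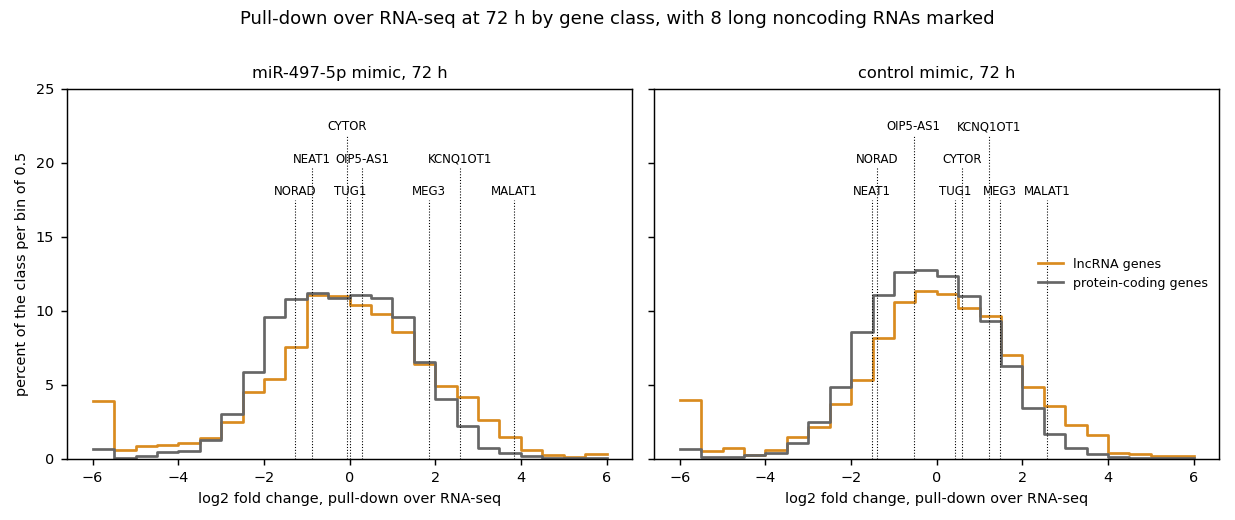
Share of lncRNA genes and of protein-coding genes (percent per bin of 0.5) by log2 fold change, pull-down over RNA-seq at 72 h, with miR-497-5p on the left and the control on the right, and 8 members marked by dotted lines. The outermost bins take in all values beyond them; MALAT1 lies to the right of most genes of both classes, and NEAT1 and NORAD lie left of 0.

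Of 12 others described as nuclear, 9 were tested at 72 h, and 0 were higher and 4 lower in the pull-down with miR-497-5p and 0 higher and 5 lower with the control (medians −0.86 and −0.78). Lowest of those that passed with the control was DLEU2, host of miR-15a and miR-16-1, at −2.62 ± 0.22 (adjusted p = 1.03e-08), and MIR22HG (−0.78 ± 0.15) and PVT1 (−0.40 ± 0.06) were also lower. In the mimic comparison at 72 h, 4 of 10 rose and 1 fell in RNA-seq, where 27.9% of all genes rose and 29.6% fell. DLEU2 fell in RNA-seq (−0.77 ± 0.07, adjusted p = 1.69e-13), while JPX (0.73 ± 0.06) and MIR22HG (0.74 ± 0.08) rose. In the pull-down 2 rose and 2 fell, where 10.2% of all genes rose and 12.6% fell. The 2 that fell there, FIRRE (−7.02 ± 2.34) and MIAT (−6.21 ± 1.32), had wide errors. Pull-down over RNA-seq, 30.6% of all genes were higher and 35.2% lower with miR-497-5p, and 29.7% and 34.1% with the control. These shares apply to every list below, and no result about a list is read from its counts.

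Of 11 others described as found in the cytoplasm, 10 were tested against RNA-seq at 72 h. That description does not mean mainly cytoplasmic, and hosts of microRNAs such as MIR100HG were not left out. Where each lies in these cells was not tested. Of the 10, 2 were higher and 5 lower with miR-497-5p and 3 higher and 7 lower with the control (medians −1.30 and −1.40). LINC01133 was higher with the control (0.94 ± 0.08, adjusted p = 7.89e-09), and DANCR (−2.69 ± 0.13, adjusted p = 7.82e-12) and FGD5-AS1 (−1.78 ± 0.06, adjusted p = 9.37e-14) were lower. With miR-497-5p at 72 h 4 of 10 rose and 1 fell in RNA-seq and 3 of 11 rose and none fell in the pull-down. MIR100HG, host of let-7a-2 and miR-125b-1, rose in both (1.66 ± 0.17 in the pull-down, adjusted p = 5.62e-08, and 1.47 ± 0.05 in RNA-seq, adjusted p = 1.45e-29).

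The mRNAs of proteins that work with the members were described as lists, with no test of a list. Of 18 paraspeckle proteins, partners of NEAT1, 3 rose and 6 fell with miR-497-5p at 72 h in the pull-down, and 7 rose and 9 fell in RNA-seq (median −0.07, beside 0.00 over all genes). HNRNPK rose (0.56 ± 0.03, adjusted p = 7.68e-19), and TARDBP (−0.81 ± 0.05, adjusted p = 2.21e-17) and DAZAP1 (−0.46 ± 0.04, adjusted p = 1.12e-14) fell in RNA-seq. Pull-down over RNA-seq at 72 h, 3 were higher and 13 lower with miR-497-5p and 3 higher and 12 lower with the control, and SMARCA4, a chromatin remodelling ATPase, was higher at 3.98 ± 0.06 and 3.12 ± 0.06. Of 12 nuclear speckle proteins, 7 were higher and 4 lower with miR-497-5p and 6 higher and 4 lower with the control. The speckle core protein SON (2.50 ± 0.05 and 2.30 ± 0.05) and SRRM1 (3.21 ± 0.05 and 2.40 ± 0.05) were among the higher. With miR-497-5p at 72 h, 4 speckle mRNAs rose and 7 fell in RNA-seq, among them RNPS1 (−0.80 ± 0.04, adjusted p = 8.56e-24) and U2AF2 (−0.80 ± 0.05, adjusted p = 1.55e-19), and 4 rose and 6 fell in the pull-down.

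Of 8 Pumilio proteins and NORAD partners, 6 rose and 2 fell with miR-497-5p in RNA-seq at 72 h (median 0.44), and 3 rose and 2 fell in the pull-down. TOP1, the topoisomerase, rose (0.97 ± 0.04, adjusted p = 7.4e-24). ALYREF, an mRNA export factor, was lower (−1.20 ± 0.05). Against RNA-seq at 72 h, 2 were higher and 4 lower in the pull-down with miR-497-5p, and 3 higher and 5 lower with the control. Of 6 proteins that bind H19 or OIP5-AS1, 5 were tested, and in RNA-seq at 72 h 1 rose and 3 fell, among them ELAVL1 (HuR), a binder of OIP5-AS1, at −0.28 ± 0.04 (adjusted p = 6.01e-07). None of the 5 passed in the pull-down, where 3 were higher and 1 lower than RNA-seq with miR-497-5p and 2 higher and 1 lower with the control.

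Of 19 neighbours and imprinted partners, 15 were tested at 72 h, with 10 higher and 3 lower in the pull-down with miR-497-5p and 10 higher and 4 lower with the control (medians 0.79 and 0.80). MRPL23, a mitochondrial ribosomal protein gene next to H19, was at 4.11 ± 0.05 and 4.42 ± 0.05. MEG8, an RNA of the MEG3 locus, was higher by 1.09 ± 0.05 and 1.00 ± 0.05, and rose with miR-497-5p in both assays (1.18 ± 0.10 in the pull-down, adjusted p = 5.19e-09, and 1.08 ± 0.06 in RNA-seq), where MEG3 had 0.48 ± 0.13 in the pull-down and 0.08 ± 0.05 in RNA-seq. With miR-497-5p at 72 h 6 of 15 rose and 6 fell in RNA-seq, and 5 rose and 4 fell in the pull-down. CDKN1C, which KCNQ1OT1 silences, rose in RNA-seq (1.11 ± 0.11, adjusted p = 1.4e-12), and so did IGF2, the partner of H19 (1.22 ± 0.13, adjusted p = 1.76e-11). As a contrast, of 15 abundant cytosolic mRNAs 3 were higher and 10 lower in the pull-down with miR-497-5p and 4 higher and 9 lower with the control (medians −0.47 and −0.57), while EEF1A1, an elongation factor, was at −1.39 ± 0.02 and −1.71 ± 0.02. With miR-497-5p at 72 h 10 of them rose and 4 fell in RNA-seq, and 9 rose and 3 fell in the pull-down.

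For each member the genes with the most similar pattern were found by the root mean square difference of log2 CPM over the 8 group means, each centred on its mean within an assay, among about 10480 genes. For MALAT1, whose own group means lay 1.43 (root mean square) from their assay's average, the nearest were SHC2 at 0.212 and CATSPER2P1 at 0.215. For NEAT1, at 0.278, SMIM20 (0.0871) was among them. KCNQ1OT1 had ZNF8 (0.139) among its nearest. MEG3 was nearest to ZC3H12A-DT (0.102) and PEDS1 (0.112), and NORAD to ARSG (0.146) and FAM200B (0.162). TUG1 was nearest to JCAD (0.0867) and THRB (0.094), and OIP5-AS1 to the carboxypeptidase M gene (0.14) and CCNG2 (0.166). CYTOR's nearest were CRYBB2P1 (0.105) and its own copy MIR4435-2HG (0.11), which may share its reads. H19's were VTA1 (0.153) and CLPX (0.155).

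Base composition was described beside these values. Adenine made up 30.4% of the exons of MALAT1, 32.7% of KCNQ1OT1, 24.2% of NEAT1 and 24.8% of MEG3. It made up 28.0% of NORAD, 29.4% of TUG1, 29.2% of OIP5-AS1, 26.4% of CYTOR and 20.3% of H19. The longest run of A was 29 bases in KCNQ1OT1 and in OIP5-AS1 (0.705% of genes held one as long), 22 in NEAT1, 18 in TUG1, 13 in MALAT1 and CYTOR and 5 in H19. Across genes, with each gene a point and all points from the same libraries, Spearman's rho between adenine share and the log2 fold change of miR-497-5p over control was 0.438 in RNA-seq at 72 h (17327 genes) and 0.192 in the pull-down (17274 genes). For pull-down over RNA-seq at 72 h it was −0.399 with miR-497-5p and −0.353 with the control (16888 genes). With the share of G and C in place of adenine, rho between mimics at 72 h was −0.426 in RNA-seq and −0.168 in the pull-down. For pull-down over RNA-seq at 72 h it was then 0.47 with miR-497-5p and 0.423 with the control. The part of composition in these values was not tested.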

How the data were processed

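Raw counts of unique reads in exons, 1 value per gene and library, were deposited by the authors. Per the submitters' processing notes and the series design, Trimmomatic 0.36 trimmed the paired reads of 150 bases, STAR 2.5.2b placed them on GRCh38, and featureCounts (Subread 1.5.2) did the counting. The annotation release and the strand setting are not given in the sources used here. Symbols and exons were taken from GENCODE 44, which matched 56410 of 57500 identifiers (98.1%). The 9 members and all gene lists were chosen with earlier results of these data known.

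Counts were tested in R 4.3.3 with edgeR 4.0.16 (robust quasi-likelihood, TMM scaling, filterByExpr), in 4 fits of 12 libraries each, 1 for each assay (miR-497-5p against control) and 1 for each time (pull-down against RNA-seq). Benjamini-Hochberg adjustment covered every gene in a fit, and calls needed an adjusted p below 0.05. Errors of log2 fold changes are SE worked out as the size of the fold change over the square root of the quasi-likelihood F. The 95% intervals take the normal multiple of that SE and leave out the degrees of freedom of the test, so they are somewhat too narrow. Levels are CPM scaled by TMM over all 24 libraries with the SD of 3. A count of 0 allows up to 3 counts, and such limits cover counting error only. All members were named, with the 2 nearest genes in pattern (mean of at least 5 CPM, pseudocount 0.5) and, from each list, up to 3 genes of smallest adjusted p per comparison and any that overlap or neighbour a member. A few genes that this rule names are not reported here. The fits were tested on simulated data. Alternatives were DESeq2 1.42.0 and its size factors, library totals, no filter, an offset for gene length, a replicate block, other sets of libraries in the fit, and leaving out each library.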

Additional observations from a re-analysis of the deposited data

Results flagged for a closer look

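The effect of miR-497-5p over the control differed between pull-down and RNA-seq at 72 h, by the interaction test in edgeR, for 5 members. On the log2 scale the effect in the pull-down minus that in RNA-seq was 1.27 for MALAT1, 0.63 for NEAT1, 0.39 for MEG3, 0.83 for OIP5-AS1 and −0.65 for CYTOR. For MALAT1 the pull-down levels with miR-497-5p were above those with the control in 3 of 3 libraries by a wide margin, while CYTOR moved in RNA-seq.

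The effect also differed between 72 h and 12 h, by the same kind of test. In RNA-seq the effect at 72 h minus that at 12 h was 0.59 for MALAT1, 0.16 for NEAT1, 0.99 for NORAD, 0.59 for TUG1, 0.86 for OIP5-AS1 and 0.40 for CYTOR. In the pull-down it was 1.71 for MALAT1, 1.47 for NORAD and 1.71 for OIP5-AS1. The NEAT1 value in RNA-seq changed sign with an offset for gene length.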

How the results depend on the processing

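Of 829 values recomputed under other settings, 772 kept their side of the threshold, 17 lost a call, 33 gained one and 7 changed sign. Of 840 that left out 1 library, 798 kept it, 26 lost a call and 16 gained one. A change of sign was counted only where the value was called before or after it. Uncalled values that changed sign were taken as kept, such as H19 in pull-down over RNA-seq with the control at 12 h (lowest −0.42). The cause of each change was not tested. NEAT1 in RNA-seq at 72 h was −0.022 with library totals, −0.049 with the length offset and −0.049 with the replicate block and length offset. Its difference between times in RNA-seq was −0.055 with the length offset and −0.056 with the replicate block and length offset, and that of MEG3, near 0 and not called otherwise, was −0.19 and called lower with either.

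The number of members called between mimics at 12 h was 2 in RNA-seq, 4 with library totals and 1 with only the libraries compared. In the pull-down it was 1, and 0 with either of those. Pull-down over RNA-seq with the control at 12 h, 3 members were called, against 5 with DESeq2 size factors, 5 with library totals, 6 without a filter and 5 with only the libraries compared. The 12 h difference between assays held 0, and 1 with DESeq2 and 1 with all 24 libraries in 1 fit. On leaving out single libraries the counts ran from 1 to 3 (RNA-seq 12 h), 4 to 5 (RNA-seq 72 h), 0 to 2 (pull-down 12 h), 4 to 5 (pull-down 72 h), 2 to 4 and 3 to 8 (pull-down over RNA-seq at 12 h with miR-497-5p and the control), 6 to 7 and 7 to 8 (the same at 72 h), 0 to 1 and 4 to 6 (difference between assays at 12 h and 72 h), and 6 to 7 and 3 to 4 (difference between times in RNA-seq and pull-down).

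Over all genes, the pull-down at 12 h held 104 calls, 314 with DESeq2 and 217 without a filter. The 12 h difference between assays held 229, against 400 with library totals, 974 with DESeq2, 573 without a filter, 111 with the length offset, 86 with the replicate block and length offset and 570 with all 24 libraries. The difference between times held 8451 calls in RNA-seq and 2134 in the pull-down, and 3648 and 4575 with all 24 libraries. Library totals moved the share of calls that were higher from 57.7% to 29.3% in RNA-seq at 12 h, from 48.5% to 38.3% at 72 h, from 54.8% to 82.1% in the pull-down at 12 h, and from 42.4% to 32.3% and 46.6% to 34.3% in pull-down over RNA-seq with the control at 12 h and 72 h. For the differences between assays it moved from 73.4% to 91.8% at 12 h (52.3% with DESeq2 size factors) and from 51.5% to 73.6% at 72 h, and for the pull-down between times from 48.6% to 37.8%.

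In 0 of 8 pairs of groups did all same-numbered replicates correlate above 0.1 in their deviations (r from −0.175 to 0.503, the RNA-seq groups at 12 h coming closest with 0.134, 0.0977 and 0.503), so the numbers were not taken to pair samples. With the replicate block, TUG1 in pull-down over RNA-seq with the control at 12 h was −0.41 (adjusted p = 0.0227), and H19 with miR-497-5p was 2.15 (adjusted p = 0.0353), both calls gained.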
